A study of Mus musculus with 6 samples.

Results

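The insulin-like growth factor (IGF) genes examined here were 10 of the 24421 genes in a table of read counts from mouse endothelial cells. They were taken by symbol: the ligand Igf1, the receptor Igf1r, the adaptors Irs1 and Irs2, and the binding proteins Igfbp2, Igfbp3, Igfbp4, Igfbp5, Igfbp6 and Igfbp7. All 10 were found. The study asked what the histone H3K79 methyltransferase Dot1l does to the transcriptome of blood endothelial cells (BECs) and lymphatic endothelial cells (LECs). Skin BECs came from E15.5 embryos that were Tie2-Cre(-); Dot1l 2f/2f (Cont) or Tie2-Cre(+); Dot1l 2f/2f (cKO), so both genotypes carried the floxed allele. Tie2-Cre is driven by the promoter of an endothelial receptor that some blood cells also use. Cells were depleted of CD45, F4/80 and Lyve1, and the study's sorting scheme also shows selection for the endothelial marker CD31, before RNA of 2 to 3 embryos was pooled. Cultured BECs of the embryonic yolk sac (line CRL-2581) and cultured LECs of the embryonic dermis (C57-6064L) received lentivirus with dCas9-VP64 and guide RNAs to the Dot1l promoter (OE-BECs, OE-LECs) or empty lentivirus (Cont), and EGFP(+) cells were sorted. Each of the 6 groups had 1 library, so every difference below is a difference between 2 libraries, with no replicate spread and no p-value.

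IGF1 is a secreted growth factor that binds the receptor tyrosine kinase IGF1R, which then recruits the adaptors IRS1 and IRS2 and feeds the PI3K-AKT and RAS-ERK pathways. In the extracellular space most IGF is held by the binding proteins, which lengthen its life, keep it from the receptor or release it when a protease cuts them. Endothelial cells are known as a source of several of these binding proteins as well as a target of the ligand.

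The libraries held between 8863349 and 31032461 reads. A level is given as counts per 1000000 reads of the library (CPM) with an exact Poisson interval, and a difference as a log2 ratio of normalized counts (changed over control) with a 95% interval (exact, Clopper-Pearson) from its reads. These intervals cover counting error only, since the libraries carried no molecular identifiers and PCR copies cannot be told from separate molecules. "Higher" and "lower" are used of a ratio only where its interval excludes 0. A library with 3 reads or fewer of a gene is at its floor, which is between 0.0967 and 0.338 CPM. Dot1l itself gave 762 reads from the Cont library against 944 from the library labelled cKO, which is a log2 ratio of -0.07 (interval -0.21 to 0.07). The count over the whole gene therefore did not separate these libraries, and directions are given by their labels. The study checked the deletion by RT-qPCR, which was not analysed here. Dot1l was 2.78-fold higher in OE-BECs and 2.30-fold higher in OE-LECs.

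Markers of the labelled cell types were examined with lists of genes. Pecam1, an endothelial junction protein, lay between 750.3 and 1187 CPM in all 6 libraries. Prox1, the transcription factor that defines lymphatic identity, was at 0 reads throughout the 4 cultured libraries, LECs included, but at 147 CPM in Cont skin BECs and 79.7 CPM in the library labelled cKO. Lyve1, a hyaluronan receptor of lymphatic vessels and of some macrophages, stood at 1998 and 1962 CPM in the LEC libraries against 604 and 1061 CPM in the cultured BEC libraries. The other 6 lymphatic genes summed to 107 CPM in Cont LECs and 130.2 CPM in OE-LECs, against 145 CPM in cultured Cont BECs and 98.5 CPM in OE-BECs, and so did not separate the lines. In the skin BEC libraries the same 6 genes summed to 1760.3 CPM in Cont and 1445 CPM under the cKO label, above every cultured library. Lyve1, against which the skin cells were depleted, stood at 1027 CPM in Cont skin BECs and 1801 CPM in the library labelled cKO. The skin libraries also held reads of other cell types: the 12 macrophage genes summed to 4018 CPM for Cont against 6272 CPM for the library labelled cKO, and the 8 fibroblast genes to 2537 and 1870 CPM. In the 4 cultured libraries the macrophage genes summed to between 119 and 245 CPM, with the F4/80 gene Adgre1 at 0 in each, and the fibroblast genes to between 2.83 and 20.4 CPM. Between the skin libraries, 11 of 12 macrophage genes had a higher CPM and 11 of 12 blood endothelial genes a lower CPM in the library labelled cKO. The blood endothelial genes summed to 6639 and 4189.9 CPM there, and to 8345 and 5067 CPM in Cont BECs and OE-BECs, where 10 of 12 had a lower CPM. In OE-LECs they summed to 6174 CPM, against 6923 CPM in Cont LECs. In such bulk libraries fewer cells of a type and less RNA per cell cannot be told apart.

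**Figure D1:**
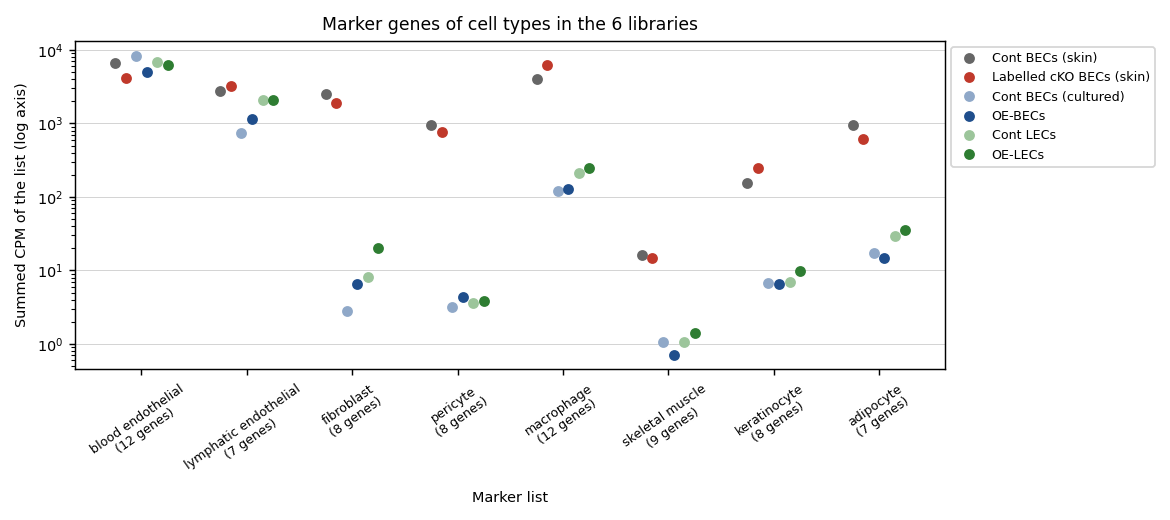
Summed CPM (log axis) of 8 lists of marker genes in each of the 6 libraries, 1 point per library. Every list except the blood endothelial one is higher in both skin libraries than in any cultured library. The blood endothelial list stays between 4189.9 and 8345 CPM throughout.

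The promoters of 4 binding proteins are shown first, because Igfbp3 and Igfbp4 differed in opposite directions after overexpression. Igfbp5 and Igfbp7 were, like Igfbp3, lower in OE-BECs. Each line gives the 250 bases before the RefSeq start (GRCm38.p6, the assembly of mm10), 5′ to 3′ on the strand of the gene. Capitals mark matches, on either strand, to the motifs searched. The TATA box was searched as the letters TATAAA. A variant of this box was searched under the spelling TATATA, and matches of the variant can overlap those of the box itself. The GC box, known as a site of SP1 factors, was searched as the letters GGGCGG. The E-box, known as a site of several basic helix-loop-helix factors, was searched as CACGTG.
Igfbp3 (chr11:7213924-7214173, minus strand): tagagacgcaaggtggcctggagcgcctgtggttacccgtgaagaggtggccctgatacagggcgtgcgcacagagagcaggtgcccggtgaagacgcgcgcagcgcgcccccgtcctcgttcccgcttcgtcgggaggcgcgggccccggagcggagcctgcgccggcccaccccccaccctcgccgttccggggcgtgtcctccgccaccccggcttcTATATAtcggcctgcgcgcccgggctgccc
Igfbp4 (chr11:99040994-99041243, plus strand): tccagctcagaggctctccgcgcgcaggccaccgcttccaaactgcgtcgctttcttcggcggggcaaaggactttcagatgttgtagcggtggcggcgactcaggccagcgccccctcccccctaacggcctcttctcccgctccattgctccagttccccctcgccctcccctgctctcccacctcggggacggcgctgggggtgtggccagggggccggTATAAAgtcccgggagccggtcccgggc
Igfbp5 (chr1:72874866-72875115, minus strand): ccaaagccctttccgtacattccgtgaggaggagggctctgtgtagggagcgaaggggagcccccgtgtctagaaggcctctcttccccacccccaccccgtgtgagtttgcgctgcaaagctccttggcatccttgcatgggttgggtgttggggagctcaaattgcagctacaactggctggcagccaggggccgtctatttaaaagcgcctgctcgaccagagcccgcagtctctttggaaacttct
Igfbp7 (chr5:77408046-77408295, minus strand): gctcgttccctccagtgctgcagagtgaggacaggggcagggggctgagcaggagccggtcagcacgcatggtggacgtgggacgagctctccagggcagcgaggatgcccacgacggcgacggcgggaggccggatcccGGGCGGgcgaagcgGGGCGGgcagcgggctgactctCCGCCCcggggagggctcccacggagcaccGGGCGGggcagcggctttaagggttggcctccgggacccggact
In Igfbp3 the single match was to the TATA box variant, which began 30 bases before the start, and in Igfbp4 it was to the TATA box, which began 28 bases before the start. Igfbp7 had 4 matches to the GC box, and Igfbp5 had no match to any of the 4 motifs. Only these literal spellings were searched, so the letters tatttaaaag in the Igfbp5 window were not counted. The GENCODE M21 annotation places the start of Igfbp5 inside this window, at 72874884. Among 32817 promoter windows of the same length, 5.25% held the TATA box variant, 12.4% the TATA box, 32.7% the GC box and 6.02% the E-box. The E-box occurred in the windows of Irs1, Irs2 and Igfbp2. The GC content of the 4 windows was 73.2% (Igfbp3), 69.2% (Igfbp4), 58.8% (Igfbp5) and 74% (Igfbp7), against a median of 52.4% over all windows. A match describes the letters of the window and not a bound site.

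The levels differed between fresh skin cells and cultured cells. For 7 of the 10 genes (Igf1, Igf1r, Irs1, Irs2, Igfbp2, Igfbp5 and Igfbp7) both skin libraries lay above all 4 cultured libraries, an order found for 42.7% of all genes with at least 10 reads over the 6 libraries. The lower skin level exceeded the highest cultured level 71.7 times for Igf1, 67.7 times for Irs2, 31.4 times for Igfbp5 and 15.9 times for Igfbp7. Igfbp3 and Igfbp4 were the reverse, with every cultured library above both skin libraries, as for 22.3% of all genes. Igfbp6, a binding protein that prefers IGF2, was scarce everywhere, between 0.0718 and 1.74 CPM. The cultured LECs also derive from skin and the cultured BECs from yolk sac. Culture itself and the lower marker levels of other cell types cannot be told apart here.

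**Figure D2:**
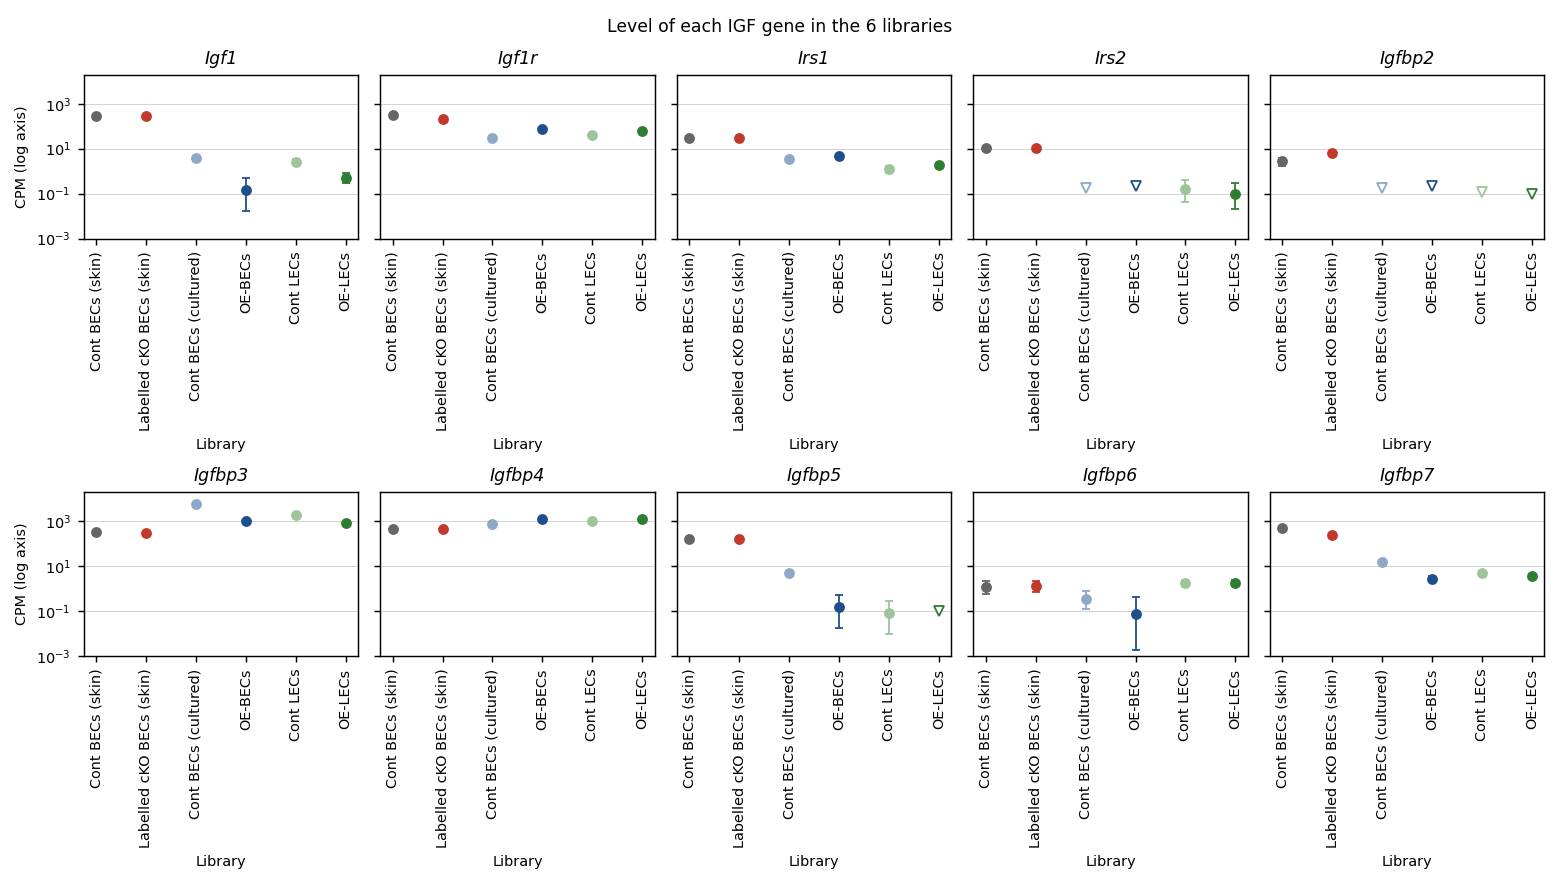
Level of each of the 10 genes in CPM (log axis) in the 6 libraries, 1 point per library with its exact Poisson 95% interval. Open triangles mark libraries with 0 reads, placed at the level of 3 reads. Igfbp3 and Igfbp4 are the genes with higher levels in all cultured libraries than in skin, and Igfbp2 has 0 reads in every cultured library.

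Igf1, the ligand, lies on chromosome 10 of mm10 from 87858265 to 87937042 on the plus strand. It had 271.8 CPM in Cont skin BECs and 299 CPM in the library labelled cKO, then 3.79 CPM in cultured Cont BECs and 0.144 in OE-BECs, with 2.68 for Cont LECs and 0.516 for OE-LECs. The skin libraries were thus far above the rest, and within each cultured line the OE library was the lower. The intervals of the 2 cultured controls overlapped, as did those of the 2 OE libraries. Cont BECs had 67 reads against 2 for OE-BECs, a log2 ratio of -4.68 (interval -7.76 to -2.77) with the lower library at its floor. In LECs they were 70 and 16, a log2 ratio of -2.36 (interval -3.24 to -1.56), which is 5.13-fold lower. Between the skin libraries Igf1 was 1.06-fold higher under the cKO label (log2 ratio 0.08, interval 0.01 to 0.16). Macrophages and fibroblasts are known to make Igf1. Depletion of CD45 and F4/80 is meant to remove the former and selection for CD31 the latter. The F4/80 gene Adgre1 nevertheless stood at 194 CPM in Cont skin BECs and 308 CPM in the library labelled cKO, and the CD45 gene Ptprc at 136 and 211 CPM. The part of these reads in the skin level of Igf1 was not tested.

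Igf2, the other IGF ligand and an imprinted gene, was the most abundant ligand per length in skin, at 434 CPM per kilobase of exon in Cont against 27.4 for Igf1. It had 2482 CPM in Cont skin BECs, 1618 in the library labelled cKO, 15.9 in cultured Cont BECs and 0.718 in OE-BECs, with 1.49 for Cont LECs and 0.644 for OE-LECs. It was lower in the changed library of all 3 comparisons, by 1.59-fold in skin, 21.6-fold in OE-BECs (282 to 10 reads, log2 ratio -4.43, interval -5.51 to -3.53) and 2.29-fold in OE-LECs (39 to 20 reads). The fibroblast list and the blood endothelial list were lower in the same skin library, as were 7 of 8 pericyte genes (937 and 774 CPM summed), and the blood endothelial list was also lower in both OE libraries. The part of these lists in the Igf2 ratios was not tested. Ins1 and Ins2 had no reads in any library.

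Igf1r (chromosome 7, 67952827 to 68233668, plus strand) was the receptor gene with opposite differences in skin and in culture. Its level was 305 CPM in Cont skin BECs, 210.02 in the library labelled cKO, 31.4 in cultured Cont BECs and 75.9 in OE-BECs, with 39.97 for Cont LECs and 59.5 for OE-LECs, and no neighbouring intervals in this order overlapped. In skin it was 1.51-fold lower under the cKO label (log2 ratio -0.59, interval -0.67 to -0.51). In OE-BECs it was 2.48-fold higher (556 to 1057 reads, log2 ratio 1.31, interval 1.16 to 1.46), and in OE-LECs 1.51-fold higher (1044 to 1846 reads, log2 ratio 0.59, interval 0.48 to 0.70). The 2 log2 ratios in culture were not tested against each other.

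Insr, which encodes the insulin receptor and can pair with IGF1R in hybrid receptors, gave a reference within each library that does not depend on scaling. There were 2.37 reads of Igf1r per read of Insr in Cont skin BECs (interval 2.21 to 2.54) and 1.76 in the library labelled cKO (interval 1.65 to 1.89). In culture this ratio was 0.2999 for Cont BECs (interval 0.272 to 0.330) and 1.07 for OE-BECs (interval 0.982 to 1.17), with 0.723 for Cont LECs (interval 0.667 to 0.784) and 1.10 for OE-LECs (interval 1.03 to 1.18). The ratio was thus higher in the OE library of both lines and lower in the library labelled cKO, with intervals that do not overlap. Insr itself was 1.44-fold lower in OE-BECs and showed a log2 ratio of -0.02 (interval -0.12 to 0.09) in OE-LECs. Igf2r, which carries IGF2 to lysosomes for breakdown, was 1.53-fold lower in the library labelled cKO and 2.499-fold lower in OE-BECs (756 to 232 reads, log2 ratio -1.32), while OE-LECs gave a log2 ratio of 0.02 (interval -0.09 to 0.12). Igf1r, Igf2r and Insr were lower in skin under the cKO label together with the blood endothelial list, as were Insr and Igf2r in OE-BECs. The part of that list in these ratios, and in the reads of Igf1r per read of Insr, was not tested.

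**Figure D3:**
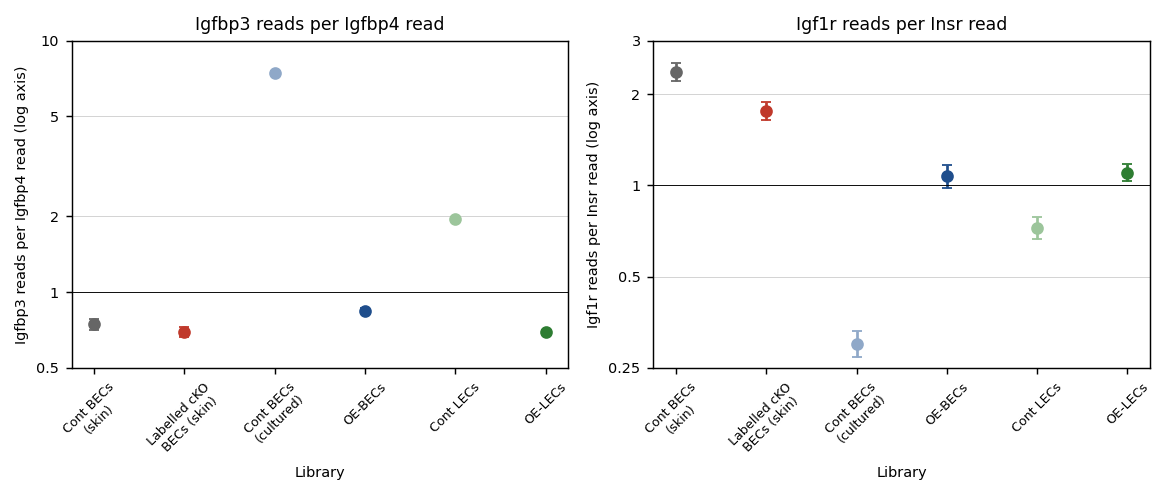
Reads of Igfbp3 per read of Igfbp4 (left) and of Igf1r per read of Insr (right) in each library (log axes), with exact 95% intervals and a line at 1. In both cultured lines the left ratio is lower and the right ratio higher in the OE library than in its control. The pairs were chosen after the values had been seen.

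Irs1 and Irs2 couple the receptor to PI3K. Irs1 (chromosome 1, 82233101 to 82291416, minus strand) had 28.5 CPM in Cont skin BECs and 29.6 in the library labelled cKO, then 3.34 in cultured Cont BECs and 4.52 in OE-BECs, with 1.19 for Cont LECs and 1.87 for OE-LECs. Its log2 ratio was -0.0033 in skin (interval -0.24 to 0.24), 0.48 in OE-BECs (interval -0.06 to 1.01) and 0.67 in OE-LECs (31 to 58 reads, interval 0.02 to 1.35), so only the last interval excluded 0. Irs2 (chromosome 8, 10984681 to 11008458, minus strand) had 10.4 CPM in both skin libraries (92 and 115 reads). Its log2 ratio there was -0.06 (interval -0.46 to 0.36). In culture it was at or near the floor, with 4 and 3 reads in the LEC libraries and 0 in both BEC libraries. The Poisson interval of these 0 reads goes up to 0.209 CPM for Cont BECs and 0.265 CPM for OE-BECs.

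Igfbp3 (chromosome 11, 7206086 to 7213923, minus strand) encodes the main IGF carrier of blood plasma. It had 329 CPM in Cont skin BECs, 309 in the library labelled cKO, 5489.6 in cultured Cont BECs and 1009 in OE-BECs, with 1936 for Cont LECs and 858 for OE-LECs. In cultured Cont BECs it took 0.549% of all reads. It was 5.29-fold lower in OE-BECs (97087 to 14062 reads, log2 ratio -2.40, interval -2.43 to -2.38) and 2.23-fold lower in OE-LECs (50568 to 26627 reads, log2 ratio -1.16, interval -1.18 to -1.13). In skin the log2 ratio was -0.15 (interval -0.22 to -0.08). Both OE libraries remained above the skin libraries. The blood endothelial list was also lower in both OE libraries. Its part in the ratios of Igfbp3, Igf1 and Igfbp5 in culture was not tested.

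Igfbp4 (chromosome 11, 99041244 to 99054392, plus strand), an inhibitory binding protein that the protease PAPPA cuts, differed the other way in culture. It had 441 CPM in Cont skin BECs, 445 in the library labelled cKO, 737 in cultured Cont BECs and 1196 in OE-BECs, with 988 for Cont LECs and 1233 for OE-LECs. The log2 ratio was 0.74 in OE-BECs (13026 to 16664 reads, interval 0.71 to 0.77) and 0.34 in OE-LECs (25794 to 38277 reads, interval 0.32 to 0.36), and -0.04 in skin (interval -0.11 to 0.02). Within a library, reads of Igfbp3 per read of Igfbp4 were 7.45 in cultured Cont BECs (interval 7.32 to 7.59) and 0.844 in OE-BECs (interval 0.825 to 0.863), with 1.96 for Cont LECs and 0.696 for OE-LECs. In the skin libraries the ratio was 0.745 and 0.694, with overlapping intervals. This ratio also does not depend on the scaling of libraries.

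Igfbp5 (chromosome 1, 72857932 to 72874884, minus strand), which binds extracellular matrix as well as IGF, was found mainly in the libraries of fresh skin cells. It had 159.8 CPM in Cont skin BECs and 153 in the library labelled cKO, 4.86 in cultured Cont BECs and 0.144 in OE-BECs, with 0.0766 for Cont LECs and 0 for OE-LECs. Its reads were 86 in Cont BECs and 2 in OE-BECs, a log2 ratio of -5.04 (interval -8.11 to -3.15). With 2 and 0 reads in the LEC libraries no ratio was taken. In skin the log2 ratio was -0.12 (interval -0.22 to -0.02). Igfbp2, which carries an integrin-binding motif, lies tail to tail with Igfbp5, from 72824503 to 72852474 on the plus strand, with 5457 bases between them. Igfbp2 had 0 reads in all 4 cultured libraries, where the upper ends of the Poisson intervals lie between 0.119 and 0.265 CPM. It had 24 reads in Cont skin BECs and 72 in the library labelled cKO (2.71 and 6.50 CPM), a log2 ratio of 1.21 (interval 0.52 to 1.94). The neighbours thus had different log2 ratios in the same skin libraries. In the library labelled cKO the 8 keratinocyte genes summed to 246 CPM against 155 CPM in Cont, with 5 of 8 higher in CPM, and the 7 adipocyte genes to 619 CPM against 964 CPM. Their part in the Igfbp2 ratio was not tested.

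Igfbp7 (chromosome 5, 77349240 to 77408041, minus strand) encodes a secreted protein of vessel walls that binds IGF only weakly. It had 485 CPM in Cont skin BECs, 239 in the library labelled cKO, 15.04 in cultured Cont BECs and 2.66 in OE-BECs, with 5.05 for Cont LECs and 3.71 for OE-LECs. It was lower in the changed library of all 3 comparisons. The fold was 2.11 in skin (4295 to 2647 reads, log2 ratio -1.08, interval -1.15 to -1.01), 5.51 in OE-BECs (266 to 37 reads, log2 ratio -2.46, interval -3.0 to -1.96) and 1.35 in OE-LECs (132 to 115 reads, log2 ratio -0.43, interval -0.80 to -0.06). The blood endothelial list was lower in the same 3 libraries, and its part in these ratios was not tested. The 3′ end of Igfbp7 overlaps that of Polr2b on the other strand in the GENCODE M21 annotation, as Irs2 overlaps 9530052E02Rik, Igf2r overlaps Airn, and Igf2 overlaps Igf2os and, on its own strand, Mir483. The methods of the study give the -S option of VERSE, the counting program, and do not say in words whether strand was used, so reads of these genes may be shared. Igfbp6 (chromosome 15, 102144362 to 102149511, plus strand) had 10 and 14 reads in skin, 6 and 1 in cultured BECs and 45 and 54 in LECs, and none of its 3 intervals excluded 0.

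**Figure D4:**
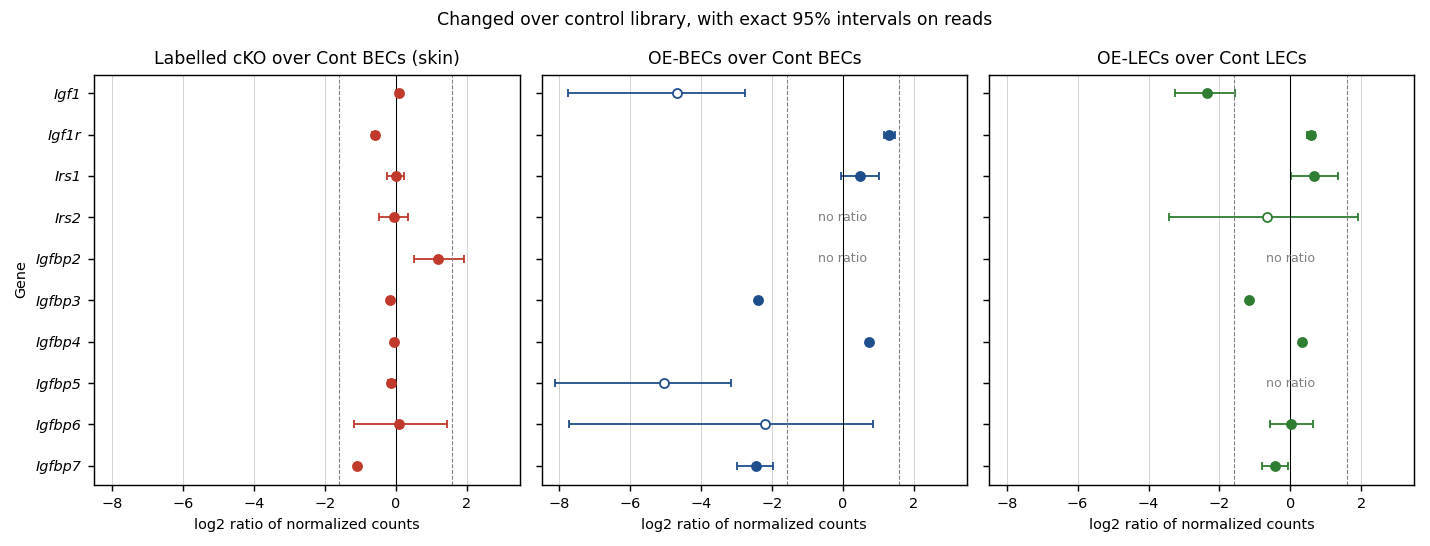
Log2 ratio of normalized counts, changed over control, for the 10 genes in the 3 comparisons, with exact 95% intervals. Dashed lines mark 3-fold, open points have 3 reads or fewer in the lower library, and "no ratio" means that both libraries were at the floor. The ratios of OE-BECs are the most spread, from -5.04 for Igfbp5 to 1.31 for Igf1r.

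Counts over the 10 genes were read against all genes. By the rule of the study (a higher normalized count of at least 5 for cKO or 3 for OE, and more than 3 times the lower), 5 genes were lower in OE-BECs (Igf1, Igfbp3, Igfbp5, Igfbp6 and Igfbp7) and 0 were higher, of 8 that reached the minimum, against 5.27% of all genes tested that were lower and 8.02% that were higher. The ribosomal RNA precursor Rn45s took 5.91% of reads in cultured Cont BECs and 10.9% in OE-BECs, against at most 0.570% in the other 4 libraries. With scaling by total counts without Rn45s the same 5 genes passed. Igfbp6 passed on 6 reads against 1, and its interval (-7.73 to 0.84) includes 0. In OE-LECs only Igf1 was lower by this rule, of 8 that reached the minimum, against 2.09% of all genes, and 0 were higher against 2.77%. In skin 0 of 10 passed, against 5.17% of all genes higher and 2.41% lower.

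A 2-fold rule that needs at least 10 reads in the pair could be applied to all 10 genes in skin, where Igfbp2 was higher (9.19% of all genes) and Igfbp7 lower (4.33%) by at least 2-fold. Of the 7 with enough reads in OE-BECs, Igf1r was higher (6.51% of all genes) and Igf1, Igfbp3, Igfbp5 and Igfbp7 were lower (7.17%). Of the 7 in OE-LECs, Igf1 and Igfbp3 were lower (2.59% of all genes) and 0 were higher (3.37%). The median log2 ratio over the genes with enough reads was -0.05 in skin, -2.40 in OE-BECs and 0.03 in OE-LECs, beside 0.00, -0.01 and 0.00 over all genes tested. Irs2, Igfbp2 and Igfbp6 in BECs and Irs2, Igfbp2 and Igfbp5 in LECs had too few reads for this rule.

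Per kilobase of exon, which allows the binding proteins to be set beside each other, the make-up of Igfbp2 to Igfbp7 differed between skin and culture. Igfbp7 held 63.1% of their summed level in Cont skin BECs and 46.3% in the library labelled cKO, with Igfbp3 at 16.5% and 23.1% and Igfbp4 at 15.7% and 23.6%. In cultured Cont BECs Igfbp3 held 90.7% and Igfbp4 8.62%, whereas in OE-BECs they held 54.1% and 45.5%. The shares were 72.9% and 26.4% for Cont LECs, against 49.1% and 50.05% for OE-LECs. The summed level was 1934 CPM per kilobase in cultured Cont BECs and 595.5 in OE-BECs, 848 for Cont LECs and 558 for OE-LECs, and 635 and 427 in the skin libraries. In each comparison the changed library therefore had the lower sum, and the Igfbp3 shares of the OE libraries were 54.1% and 49.1% where those of their controls were 90.7% and 72.9%. These sums do not describe every gene. In skin, Igfbp7 had 401 and 198 CPM per kilobase in Cont and cKO, against 105 and 98.6 for Igfbp3 and 99.97 and 100.7 for Igfbp4. In culture, Igfbp3 had 1754 in Cont BECs and 322 in OE-BECs, with 619 for Cont LECs and 274 for OE-LECs. Igfbp4 was higher in both OE libraries. Shares are ratios within a library and carry no replicate error here.

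**Figure D5:**
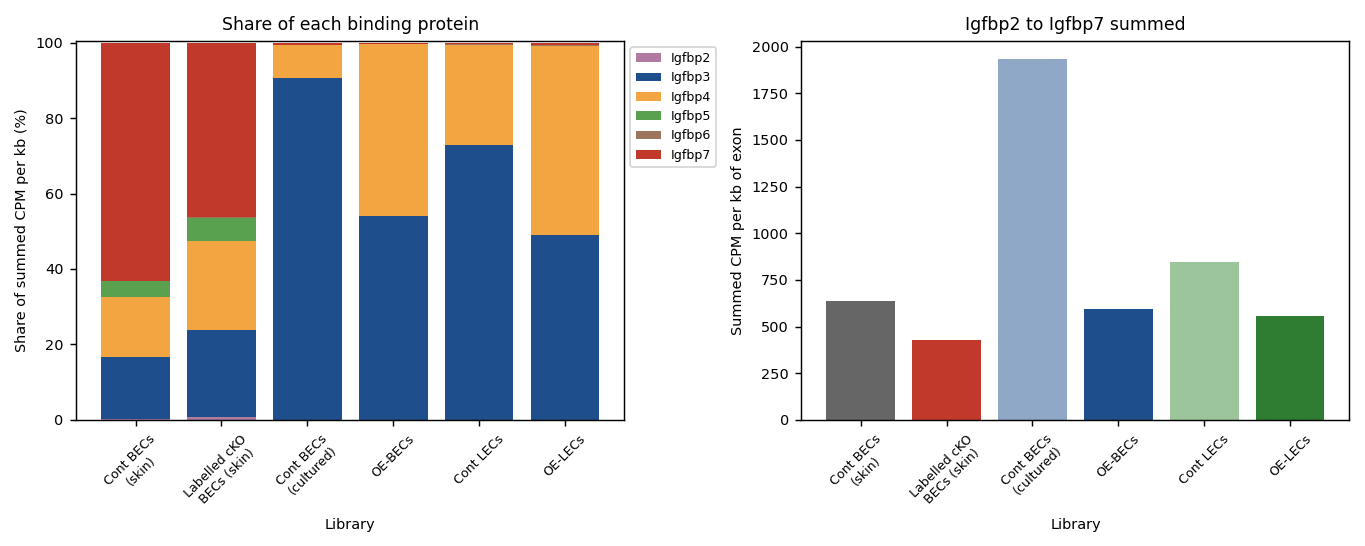
Left, share (%) of each binding protein in the summed CPM per kilobase of exon of Igfbp2 to Igfbp7 in each library. Right, the summed CPM per kilobase. Igfbp7 is the largest share in both skin libraries, and Igfbp3 with Igfbp4 make up nearly all of the level in the cultured libraries.

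A list of 59 other genes of the IGF and insulin pathway was examined in the same way. In skin 54 had at least 10 reads, of which 9 were higher, 26 lower and 19 had an interval that includes 0, with a median log2 ratio of -0.14. Over all genes with at least 10 reads, 23.1% were higher and 25.4% lower by the same interval. An interval narrows with the number of reads, so such shares also depend on how abundant the genes of a list are. Past 2-fold were Stc2 and Pik3cd, which were higher (9.19% of all genes), and Irs4, which was lower (4.33%). Stc2, a stanniocalcin that blocks the protease PAPPA, had 26 and 161 reads (log2 ratio 2.25, interval 1.65 to 2.91). Pik3cd, the PI3K catalytic subunit enriched in white blood cells, had 421 and 1145 reads (log2 ratio 1.07, interval 0.90 to 1.23), and the macrophage list was higher in the same library. The part of macrophage reads in this ratio was not tested. Irs4, named after its values were seen, had 31 and 10 reads.

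In OE-BECs 52 had at least 10 reads, with 10 higher, 21 lower and a median of -0.04, where 27.4% of all genes were higher and 30.0% lower. Past 2-fold were 2 with more reads in OE-BECs (6.51% of all genes) and 6 with fewer (7.17%). Beside Igf2 and Igf2r, the 6 were Grb10, Pappa2, Pik3r3 and Htra1. Grb10, an imprinted adaptor that inhibits both IGF1R and INSR, had 19507 and 6595 reads (1103 and 473 CPM, log2 ratio -1.18, interval -1.22 to -1.14). Pappa2, a protease that cuts IGFBP3 and IGFBP5, had 648 and 220 reads (log2 ratio -1.18, interval -1.40 to -0.95). Pik3r3, a regulatory subunit of PI3K, had 2695 and 870 reads (log2 ratio -1.25, interval -1.36 to -1.14). The inhibitor Grb10 and the protease Pappa2 were thus lower in the library where Igf1r was higher and Igfbp3 lower. Both were also lower under the cKO label in skin, where Igf1r was lower (log2 ratios of -0.86 for Grb10 and -0.64 for Pappa2). In OE-LECs, where Igf1r was higher, their log2 ratios were -0.35 and -0.40. Grb10 and Pappa2 were thus lower in all 3 comparisons, and so was Pik3r3 (log2 ratios of -0.78 in skin and -0.52 in OE-LECs). A link of these genes to Igf1r was not tested. Htra1 (13 and 2 reads), Irs3 (0 and 10 reads) and Igfbpl1 (4 and 10 reads) were past 2-fold on few reads and were named after their values were seen.

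In OE-LECs 50 had at least 10 reads, with 13 higher, 18 lower and a median of -0.02, where 24.2% of all genes were higher and 21.4% lower. Past 2-fold (2.59% of all genes lower, 3.37% higher) were Igf2, which was lower, and Htra1, a secreted protease that was higher (9 and 28 reads). Of the 23 genes of the PI3K and AKT arm, 8 were higher and 5 lower in OE-LECs, 4 and 10 in OE-BECs, and 6 and 11 in skin. Of the 11 genes of the RAS and ERK arm, 3 were higher and 5 lower in OE-LECs, 4 and 2 in OE-BECs, and 0 and 5 in skin, and none of the 11 was past 2-fold in any comparison. The shares of all genes given above are the background for both arms.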

How the data were processed

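RNA-seq libraries were made by the authors with the ScriptSeq v2 kit, trimmed with skewer, aligned to mm10 with STAR and counted with VERSE (option -S). The deposited values are raw counts of reads for 24421 gene symbols in 6 libraries of 1 condition each, and 4473 symbols had no read. From these counts, CPM was computed with the library total, and ratios with size factors (median of ratios, DESeq2 1.42.0 in R 4.3.3) taken from the 2 libraries compared. Intervals and plots were made in Python 3.11.15 with scipy 1.17.1 and matplotlib 3.10.9. Positions, overlaps and exon lengths (union of all exons) came from GENCODE M21, and promoters from RefSeq, where all 10 members were matched.

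The 10 genes, the marker and pathway lists and the rules were chosen with earlier results of these data known. Named genes were the 10 members, Dot1l, Igf2, Igf2r and Insr, pathway genes past 2-fold with at least 50 reads in the pair, and the 3 genes most like each member (at least 100 reads). Counts of genes in the text past either rule have no replicate test, and edgeR's quasi-likelihood test was not used because no group has more than 1 library. The steps were tested on simulated counts with counting error only and large planted differences. That check does not cover spread between replicates or small differences. The alternatives tried took size factors across the 6 libraries, or only from genes with at least 10 reads, TMM factors of edgeR 4.0.16, total counts with and without Rn45s, a pseudocount of 1, a minimum of 20 normalized counts and no minimum.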

Additional observations from a re-analysis of the deposited data

How the results depend on the processing

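Of 156 log2 ratios of the 10 genes recomputed under the other scalings and a pseudocount of 1, 152 stayed within the counting interval of the reported value and none whose interval excludes 0 changed sign. In skin the sign changed for Irs1 under 5 settings and for Igfbp4 under 2, both with intervals that include 0. The values outside their interval were Igfbp3 and Igfbp4 in OE-BECs, whose intervals are narrow: -2.44 and 0.70 with total counts, and -2.37 and 0.78 with total counts without Rn45s. No scaling moved the ratios of all genes by more than 0.0553 (log2). The number of the 10 genes past the 3-fold rule in OE-LECs was 2 in place of 1 with no minimum, which adds Igfbp5 on 2 reads against 0. In OE-BECs Igfbp6 no longer passed with a pseudocount of 1 or a minimum of 20. Over all genes, the number past the 3-fold rule was 1213 in skin, 1965 in OE-BECs and 675 in OE-LECs, against 525, 483 and 160 with a minimum of 20, and 2993, 3617 and 2286 with no minimum. The number past the 2-fold rule was 2103, 1833 and 776, against 1352, 1188 and 453 with a minimum of 20, and 4489, 4768 and 3057 with no minimum. No paired analysis was possible because each group has 1 library and the ratios come from no test, and for the same reason no library could be left out. Depth limits Igf1, Igfbp5 and Igfbp6 in OE-BECs, where 1 or 2 reads set the size of the ratio, and Irs2 and Igfbp2 in culture.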

Other observations

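The genes whose pattern over the 6 libraries was most like that of each member were found by the root mean square distance of log2(CPM + 0.5), centred on its mean over the libraries, among 13264 other genes with at least 100 reads (13265 for Igfbp2, which has fewer reads itself). With 6 libraries of 1 per group the distances are a description. For Igf1 the nearest were Csf2rb (0.464), Lyz2 (0.674) and Slco2b1 (0.697). For Igfbp5 they were Csf2rb (0.462), Ms4a6c (0.61) and Lama3 (0.64). Csf2rb, a cytokine receptor subunit of myeloid cells, was thus nearest to both, and Lyz2 was on the macrophage list. For Igf1r they were Ankrd6 (0.214), Gadd45b (0.222) and Gata3 (0.251). For Irs1 they were Plekhh1 (0.15), Plag1 (0.173) and Ppm1e (0.193). For Irs2 they were Gm10578 (0.137), Dzip1l (0.138) and Rps6ka6 (0.138). Among the binding proteins the smallest distance was found for Igfbp2, which had 0 reads in culture and few in skin. Its nearest genes were Tgm1 (0.0559), Miat (0.073) and Ppbp (0.0988). For Igfbp3 they were Psg22 (0.322), P3h2 (0.401) and Ltf (0.43). For Igfbp4 they were Osbpl5 (0.0939), Anp32b (0.0958) and 1110006O24Rik (0.098). The nearest gene to Igfbp7 was Gja4, a connexin of arterial endothelium. It stood at 0.277, followed by Mcf2l (0.406) and Palmd (0.446). For Igfbp6 they were Sdhd (0.0807), Atp6ap2 (0.133) and Laptm4a (0.138).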
